A study of Mus musculus with 6 samples.

Results

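Vars2, Gtf2h4, Ddr1, Ier3, Flot1, Tubb5, Mdc1, Nrm, Dhx16 and Abcf1 are 10 genes that follow each other in this order on mouse chromosome 17, in the class I part of H2, the mouse major histocompatibility complex. Every probe set annotated with exactly 1 of these symbols was taken, which gave 28 of 45037 probe sets. Of these 28, 22 passed a filter on dim values, which asked that at least 3 of 6 arrays read over their own 40th percentile. Thymus RNA of adult female F1 mice was hybridised to Affymetrix arrays. The genotype called the AKR cross here is (AKR/J x FVB/NJ)F1 and the one called the DBA cross is (DBA/2J x FVB/NJ)F1, and each has 3 arrays. The design text asks how gene expression in the untreated thymus differs between these genotypes. Every mouse had an FVB/NJ parent, so the other parent was the difference between the groups, and an array does not separate the 2 alleles of an F1 animal. The labels do not say whether an array held RNA of 1 animal or that replicates came from separate animals, so the spread between arrays may be technical. The 10 genes were chosen with this comparison in view, so their differences are given as a description with no test. Values are on a log2 scale, differences are AKR cross minus DBA cross, and errors are SD over n = 3 arrays of a cross unless named otherwise.

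AKR/J, DBA/2J and FVB/NJ carry different H2 haplotypes (H2k, H2d and H2q), so the crosses differ by descent across this region. Besides the class I genes that present peptides to T cells, the region holds genes with no part in antigen presentation. Gtf2h4 encodes the p52 subunit of TFIIH, a complex that opens DNA in transcription and in nucleotide excision repair. Vars2 encodes the mitochondrial valyl-tRNA synthetase, which charges the valine tRNA for protein synthesis in mitochondria. Ddr1 encodes a receptor tyrosine kinase that binds collagen and is known from epithelial cells. Ier3 is an immediate-early stress response gene, Flot1 encodes a scaffold protein of membrane rafts, and Tubb5 encodes a beta tubulin. Mdc1 encodes an adaptor at DNA double-strand breaks, Nrm encodes nurim of the inner nuclear membrane, Dhx16 encodes a DEAH-box helicase of splicing, and Abcf1 encodes an ABC family protein that acts in translation.

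In the RefSeq order of assembly GRCm38.p6, Vars2, Gtf2h4 and Ddr1 were consecutive and were transcribed from the same (minus) strand. The stretches upstream of these genes, and of Ier3 as the next of the 10 genes, are shown because the step in the differences lay between Ddr1 and Ier3. Each is the part of the RefSeq promoter window (250 bases before to 50 after a start) that lay before the outer end of the gene and outside other protein-coding genes, 5′ to 3′ on the strand of the gene. The reference is C57BL/6J, which is no parent of either cross. Capitals mark matches on either strand to the letters CCAAT of the CCAAT box, to the letters GGGCGG of a GC box, or to the letters ACTACAA from the core of the ZNF143 motif. The stretches do not show the alleles of AKR/J, DBA/2J or FVB/NJ.
Vars2 (chr17:35667640-35667727, minus strand): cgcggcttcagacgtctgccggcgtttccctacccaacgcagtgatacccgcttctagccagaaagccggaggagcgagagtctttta
Gtf2h4 (chr17:35673751-35673993, minus strand): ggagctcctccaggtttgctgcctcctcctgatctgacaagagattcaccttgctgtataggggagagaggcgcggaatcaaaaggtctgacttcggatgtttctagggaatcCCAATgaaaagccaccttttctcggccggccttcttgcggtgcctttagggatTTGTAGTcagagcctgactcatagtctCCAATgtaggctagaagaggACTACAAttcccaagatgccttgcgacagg
Ddr1 (chr17:35704742-35704849, minus strand): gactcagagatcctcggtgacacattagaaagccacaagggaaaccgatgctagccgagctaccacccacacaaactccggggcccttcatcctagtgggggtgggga
Ier3 (chr17:35821463-35821712, plus strand): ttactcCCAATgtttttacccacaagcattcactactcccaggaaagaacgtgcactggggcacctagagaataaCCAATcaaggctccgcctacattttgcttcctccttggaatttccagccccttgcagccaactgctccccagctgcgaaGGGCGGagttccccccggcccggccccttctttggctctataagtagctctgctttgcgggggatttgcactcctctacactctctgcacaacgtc

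The Vars2 stretch is the whole of the 88 bases between the annotated end of Gtf2h4 and that of Vars2, so these neighbours lie almost end to end. The Ddr1 stretch of 108 bases also lies inside the noncoding gene Gm4577. Over the full 300-base windows, 9 of the 10 genes had an entry (12 windows, 4 of them for Ddr1). The window of Gtf2h4 held 2 matches to ACTACAA and that of Tubb5 held 1, while the windows of Vars2, Ddr1 and the other listed genes held none. Of all 32841 windows, 3.24% held this core. GCATGCG, a core of the NRF1 motif, was found in the window of Vars2 and in no other window of the 10 genes, against 3.58% of all windows. GGGCGG was found in 35.7% of all windows, CCAAT in 37.4% and TATAAA in 13.6%. None of the 12 windows held TATAAA, and no motif of these 5 was found in Vars2, Gtf2h4 and at least 1 window of Ddr1 alike. The motifs were chosen after the sequences were seen, and a match is not a binding site. The 4 Ddr1 windows ranged in GC content from 55.7% to 77.7%, the latter above 97.9% of all windows.

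Gtf2h4 was lower in the AKR cross on all 4 of its probe sets, by about 3-fold. The brightest, 1448585_at, read 10.67, 10.29 and 10.64 on the AKR arrays and 12.11, 12.04 and 12.16 on the DBA arrays. The groups lay apart by 1.37, and the means of 10.54 ± 0.21 and 12.10 ± 0.06 differed by -1.57, or 2.96-fold. The probe set 1437163_x_at read 10.31, 9.96 and 10.36 against 11.83, 11.85 and 12.11, and 1417093_a_at read 9.28, 8.95 and 9.37 against 10.83, 10.89 and 11.00. On both, every AKR array was below every DBA array, with differences of -1.72 and -1.71. The dimmest of the 4, 1437368_at, read 5.60, 5.36 and 5.91 against 7.34, 7.25 and 7.72, a difference of -1.81 (3.51-fold). Gtf2h4 was thus alike across its probe sets, which stand for the same gene and are no replicates of a cross. Whether the strains differ in sequence under the probes of Gtf2h4, Vars2 or Ddr1 was not tested.

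Vars2 was lower in the AKR cross on both of its probe sets, but by different amounts. The probe set 1434349_at read 7.09, 6.99 and 7.16 on the AKR arrays and 8.55, 8.62 and 8.65 on the DBA arrays. The means were 7.08 ± 0.09 and 8.61 ± 0.05, a difference of -1.53 (2.89-fold). The probe set 1454936_at read 7.51, 7.58 and 7.64 against 8.21, 7.96 and 8.10, a difference of -0.51 (1.43-fold). The groups did not overlap on either, and both probe sets were annotated with the same accession. Their mean levels over the 6 arrays were nearly equal, so which of them stands for Vars2 as the brightest rests on a very small margin. The size of the Vars2 difference is therefore given as a range from 1.43-fold to 2.89-fold.

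Ddr1 had 8 probe sets, and they fell into groups by brightness and size of difference. The brightest, 1456226_x_at, read 8.45, 8.34 and 8.68 on the AKR arrays and 10.07, 10.25 and 10.46 on the DBA arrays, a difference of -1.77 (3.40-fold). A second, 1435820_x_at, read 6.77, 6.67 and 6.67 against 8.33, 8.27 and 8.44 (-1.64, 3.12-fold). Both of these end in _x_at, a suffix of probe sets whose probes can match several transcripts. The probe sets 1415797_at and 1415798_at, without that suffix, differed by less. On 1415797_at the values were 7.31, 7.38 and 7.27 against 8.51, 8.22 and 8.44, a difference of -1.07 (2.09-fold). On 1415798_at the values were 6.13, 6.18 and 6.16 against 7.27, 7.05 and 7.13, a difference of -0.99 (1.99-fold). On all 4 of these probe sets every AKR array was below every DBA array.

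The remaining Ddr1 probe sets differed by less or in the other direction. The probe set 1459990_at read 7.07, 7.13 and 6.87 against 6.80, 6.85 and 6.83, which was 0.19 higher in the AKR cross with the groups 0.02 apart. The other 3, 1437619_x_at, 1438367_x_at and 1439382_x_at, did not pass the filter on dim values, and differed by -0.00, -0.14 and -0.54. On 1439382_x_at every AKR array was below every DBA array (4.18, 4.05 and 4.01 against 4.89, 4.64 and 4.33), with every value below the 40th percentile of its array. With the mean of the 5 Ddr1 probe sets that passed, the difference of Ddr1 was -1.05, and on the brightest probe set without the suffixes for possible matches to several transcripts it was -1.07, against -1.77 on the brightest. The direction was the same under each of these choices, while the size moved by over 1.5 times.

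Of the 14 probe sets of Vars2, Gtf2h4 and Ddr1, 13 were lower in the AKR cross, and 9 were past 1.5-fold in that direction, where 4.14% of all 45037 probe sets were. The groups did not overlap on 12 of the 14, with 11 lower and 1 higher in the AKR cross, against 35.5% of all probe sets in either direction. These counts describe genes that were chosen for the difference and support nothing further. The median of the brightest probe sets of the 3 genes was -1.57, against a median of 0.03 over all 12855 genes tested.

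**Figure D1:**
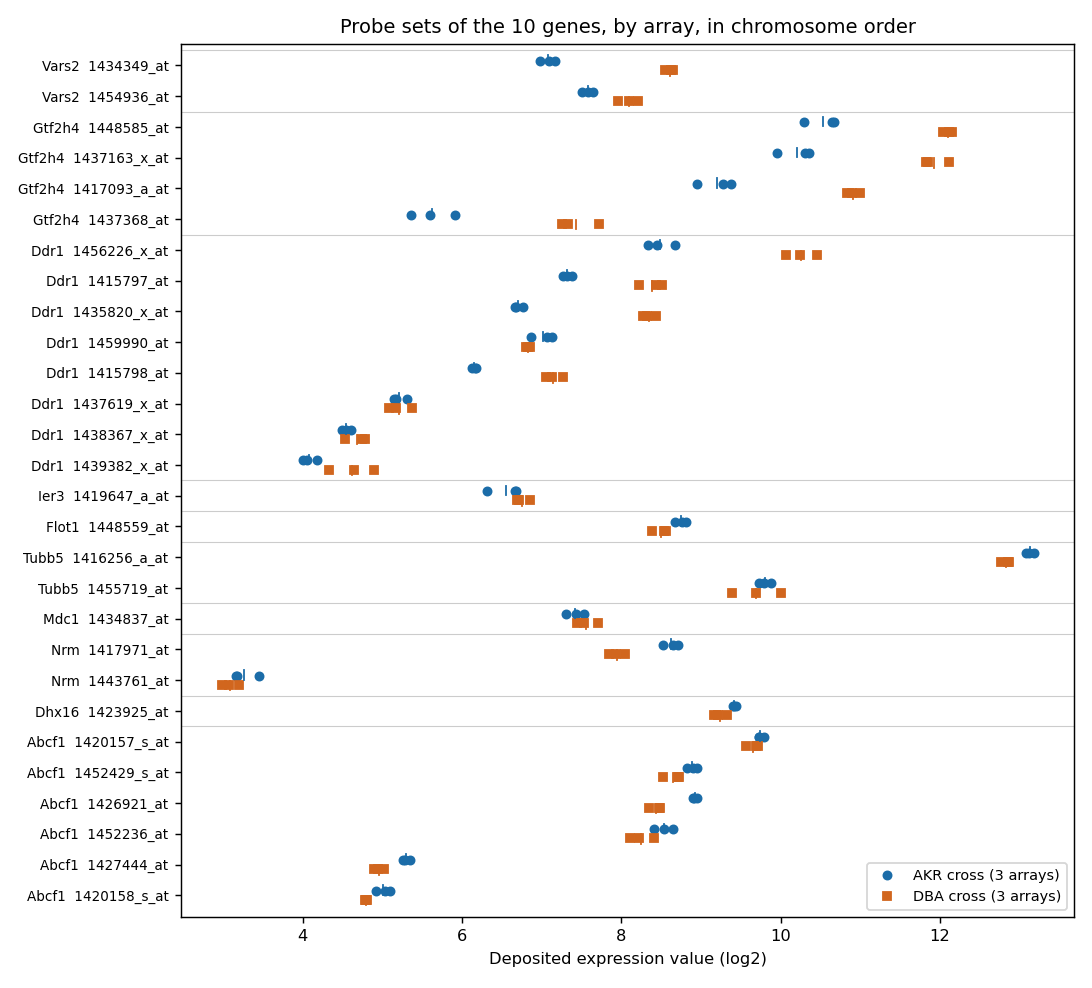
Deposited log2 value (x axis) on each of the 3 AKR arrays (circles) and 3 DBA arrays (squares) for the 28 probe sets of the 10 genes (y axis, in chromosome order and by brightness within a gene), with short lines at the mean of each cross. All 4 Gtf2h4 probe sets, both Vars2 probe sets and the 4 Ddr1 probe sets 1456226_x_at, 1415797_at, 1435820_x_at and 1415798_at are separated with the DBA cross higher, as is the dim Ddr1 probe set 1439382_x_at. From Ier3 on, the widest gap between the crosses is that of Nrm 1417971_at, with the AKR cross higher.

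From Ier3 on, the brightest probe sets ranged from -0.20 to 0.68, and none was past 1.5-fold in the direction of Gtf2h4. Ier3, the next of the 10 genes, read 6.66, 6.68 and 6.31 on the AKR arrays and 6.86, 6.69 and 6.72 on the DBA arrays. The difference was -0.20 (1.15-fold), the groups were only 0.01 apart, and without AKR replicate 3 the difference was -0.08. Flot1 read 8.81, 8.67 and 8.77 against 8.56, 8.54 and 8.38, so that it was higher in the AKR cross by 0.25 (1.19-fold) with no overlap. Tubb5 read 13.08, 13.18 and 13.12 against 12.87, 12.77 and 12.86 on 1416256_a_at. It was 0.29 higher in the AKR cross (1.23-fold) with no overlap, while its other probe set read 0.10 higher with overlap (9.80 ± 0.08 against 9.70 ± 0.31).

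Mdc1 read 7.30, 7.43 and 7.53 against 7.54, 7.44 and 7.71, and its groups overlapped (-0.14). Nrm differed most among the 7 genes beyond Ddr1, and in the direction opposite to Gtf2h4. Its probe set 1417971_at read 8.53, 8.71 and 8.65 on the AKR arrays and 8.05, 7.94 and 7.84 on the DBA arrays, which was 0.68 (1.61-fold) higher in the AKR cross. Its other probe set lay below the 40th percentile on all 6 arrays. Dhx16 read 9.44, 9.42 and 9.41 against 9.33, 9.21 and 9.16 (0.19, 1.14-fold). All 6 Abcf1 probe sets were higher in the AKR cross, from 0.09 on the brightest, 1420157_s_at, to 0.49 on 1426921_at. The groups did not overlap on 5 of the 6, against 35.5% of all probe sets in either direction. Of these 5, 1427444_at and 1420158_s_at did not pass the filter on dim values. On 1426921_at the values were 8.91, 8.90 and 8.96 against 8.49, 8.47 and 8.35. Of the 14 probe sets of these 7 genes, 12 read higher in the AKR cross, among them all 6 of Abcf1. Past 1.5-fold was 1, that of Nrm, where 5.64% of all probe sets were past 1.5-fold in either direction. On the brightest probe set of each gene, 5 of the 7 genes read higher in the AKR cross and 2 lower, with a median of 0.19. The median difference over all 45037 probe sets was 0.03.

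The genes around the 10 were not chosen by their values and were tested with limma over the whole array, with Benjamini-Hochberg adjustment over 12855 genes. A gene was called where its adjusted p was under 0.05, which held for 24% of all genes. Genes called higher in the AKR cross made up 12.5%, and those called higher in the DBA cross 11.5%. Between Vars2 and Abcf1 the RefSeq table listed 13 further genes, of which 6 had a tested probe set. Ppp1r10, a regulatory subunit gene of protein phosphatase 1, was the 1 called, at 8.37, 8.14 and 8.21 against 7.76, 7.79 and 7.39 (0.59 ± 0.12, SE, adjusted p = 0.00878, limma), higher in the AKR cross. The other 5 did not pass. They were the noncoding 4833427F10Rik (0.19), which lies next to Ddr1 among tested genes, Ppp1r18 (-0.07), 2310061I04Rik (-0.21), Atat1 (0.13), a tubulin acetyltransferase gene, and Mrps18b (0.26), a mitochondrial ribosomal protein gene. A dimmer Atat1 probe set was called higher in the AKR cross (0.59 ± 0.11, SE, adjusted p = 0.00396 over all probe sets, limma). Of all 27385 probe sets tested, 27.2% were called in this way.

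On the Vars2 side, 6 RefSeq genes without a tested probe set (Sfta2, Mucl3, Gm9573, Gm41577, 2300002M23Rik and Gm9613) lie between Vars2 and the next tested gene. Where the difference ends on this side was therefore not measured within that gap. Beyond it, Cdsn, the corneodesmosin gene, read 6.21, 6.26 and 6.08 against 6.17, 6.32 and 6.11 and did not differ beyond its spread (-0.02 ± 0.10, SE). Psors1c2 was lower in the AKR cross by 0.32 without passing (-0.32 ± 0.11, SE, adjusted p = 0.0621, limma). The next were called in the opposite direction to Vars2. Cchcr1, a coiled-coil protein gene, was higher in the AKR cross (0.45 ± 0.11, SE, adjusted p = 0.0189, limma), and so was Tcf19, a gene linked to cell proliferation (0.44 ± 0.08, SE, adjusted p = 0.00423, limma).

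Of the nearest 15 tested genes on the Vars2 side, 5 were called, of which 4 had higher values in the AKR cross, with a median difference of 0.09. Besides Cchcr1 and Tcf19 these were H2-Q5 (0.66), Ddx39b (0.19), an RNA helicase gene, and H2-D1 (-0.21). Class I genes share sequence with each other, and their probe sets disagreed. The other H2-Q5 probe set was called higher in the DBA cross (-0.34), and those of H2-D1 ranged from -4.03 to 4.73, so neither gives a direction for its gene.

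On the Abcf1 side, the nearest tested genes were Prr3 (0.23), H2-T24 (-0.05) and H2-Bl (0.06), and none of these 3 was called. Of the nearest 15, 6 were called, with 3 in each direction and a median difference of 0.06. Ubd, which encodes the ubiquitin-like protein FAT10, read 10.51, 10.44 and 10.57 against 10.86, 10.96 and 10.93 and was lower in the AKR cross (-0.41 ± 0.06, SE, adjusted p = 0.00185, limma). H2-M3, a class I gene that presents formylated peptides, was also lower (-0.39 ± 0.07, SE, adjusted p = 0.00683, limma), as was H2-T3 (-0.34 ± 0.09, SE, adjusted p = 0.0251, limma). Rpp21 (0.28), Ppp1r11 (0.23) and Znrd1 (0.29), which act in tRNA processing, phosphatase control and RNA polymerase I, had higher values in the AKR cross. On their brightest probe sets, 0 of the 36 neighbours were past 1.5-fold in the direction of Vars2, Gtf2h4 and Ddr1, where 2.92% of all genes tested were. Other probe sets of H2-D1 were past it, at -3.70, -3.79 and -4.03.

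Calls among these neighbours held unevenly when 1 array was left out. Of the 12 called neighbours, 7 were called without any 1 array, namely Ppp1r10, Tcf19, H2-Q5, Ddx39b, H2-D1, Ubd and H2-M3. Under other settings, H2-Q5 was not called with the mean of its probe sets (adjusted p = 0.232, limma). Ddx39b (0.0854) and H2-D1 (0.0774) were not called without a trend in the variance, nor without probe sets that can match several transcripts (0.0641 and 0.338). The same held for H2-T3 (0.0525 and 0.0578). Rpp21 (0.0555) and Ppp1r11 (0.0583) were also not called without a trend in the variance. Cchcr1 did not pass when AKR replicate 2 was dropped (limma, adjusted p = 0.0657), nor AKR replicate 3 (0.0607), nor DBA replicate 1 (0.0519). H2-T3 did not pass when AKR replicate 1 (0.0714), AKR replicate 3 (0.0687) or DBA replicate 3 (0.0555) was dropped. For Znrd1 this held for AKR replicate 1 (0.0576), AKR replicate 3 (0.0502), DBA replicate 2 (0.0684) and DBA replicate 3 (0.0511). Rpp21 was called again only without DBA replicate 1, with the highest adjusted p = 0.102 (limma) without AKR replicate 1, and Ppp1r11 only without AKR replicate 1, with the highest adjusted p = 0.0912 (limma) without AKR replicate 3. The count on the Abcf1 side fell from 6 to 3 when AKR replicate 1, AKR replicate 3 or DBA replicate 2 was dropped and to 2 without DBA replicate 3, and the count between the outer genes went from 1 to 2 without DBA replicate 1, where Mrps18b was added.

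**Figure D2:**
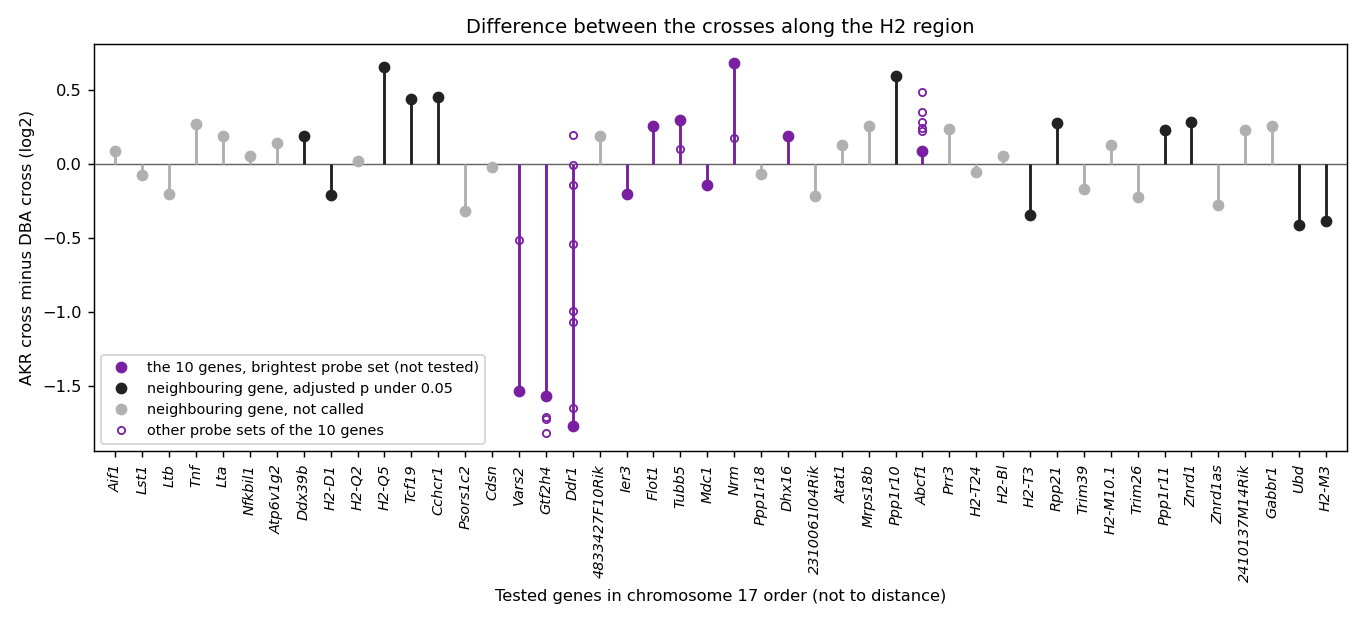
Difference between the crosses (y axis, AKR cross minus DBA cross, log2) for the 10 genes and the 36 tested neighbours in chromosome 17 order (x axis, not to distance). Filled points of the 10 genes are their brightest probe set and open circles their other probe sets, and neighbours are dark where called. Vars2, Gtf2h4 and Ddr1 lie at -1.53, -1.57 and -1.77, and every other gene shown lies between -0.41 and 0.68 on its brightest probe set.

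Genes set beside Gtf2h4 and Ddr1 by function were called in both directions, and those set beside Vars2 only toward the AKR cross. Of the 16 tested genes of TFIIH and nucleotide excision repair, 5 (31.25%) were called, against 24% of all genes. The AKR cross was higher for 3 of these and the DBA cross for 2, while 11 did not pass, and the median of the list was 0.01. Gtf2h1, which encodes the p62 subunit of TFIIH, was lower in the AKR cross (-0.73 ± 0.09, SE, adjusted p = 0.00104, limma). Gtf2h3, for the p34 subunit, was higher (0.41 ± 0.07, SE, adjusted p = 0.00507, limma), and these were the calls of this list that held without any 1 array. The TFIIH helicase genes Ercc2 (0.28) and Ercc3 (-0.16) and the kinase gene Cdk7 (0.01) did not pass. Of 15 tested aminoacyl-tRNA synthetase genes, all for mitochondrial enzymes but Vars, 4 (26.7%) were called, against 24% of all genes. Each of the 4 was higher in the AKR cross, opposite to Vars2, and the median of the list was 0.19. Sars2, the mitochondrial seryl-tRNA synthetase gene, was 0.64 ± 0.09 higher (SE, adjusted p = 0.00171, limma). Vars, the cytosolic valyl-tRNA synthetase gene, was 0.39 ± 0.08 higher (SE, adjusted p = 0.00787, limma). Only the calls of Sars2 and Vars in this list held without any 1 array.

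Of 12 collagen receptor, ligand and adaptor genes, set beside Ddr1, 4 (33.3%) were called, against 24% of all genes, with 2 in each direction. Ddr2, the other discoidin domain receptor gene, differed by 0.01 ± 0.11 (SE, adjusted p = 0.963, limma). The adaptor gene Shc1 was higher in the AKR cross (0.54). The integrin gene Itgb1 was lower (-0.35), a call lost without probe sets that can match several transcripts (-0.26, adjusted p = 0.0547, limma). Myh9 was called higher (0.92) on its brightest probe set and lower (-1.59) without probe sets that can match several transcripts, so it gives no direction. Of 15 immediate-early genes, set beside Ier3, 1 (6.67%) was called, against 24% of all genes. It was Jun, which was lower in the AKR cross (-0.46 ± 0.09, SE, adjusted p = 0.00738, limma).

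Lists set beside the other genes also went both ways. Of 10 tubulins, 3 were called in the direction of Tubb5 and 1 in the other, and Tubb4b, a beta tubulin gene, was 0.53 ± 0.06 higher in the AKR cross (SE, adjusted p = 0.000897, limma). Of 8 flotillin and lipid raft genes, 4 were called toward the DBA cross, among them the ubiquitin ligase gene Cbl (-0.25), and 1 toward the AKR cross, the T cell adaptor gene Lat (0.28). The caveolin gene Cav2, at -0.76, was at -0.22 with the mean of its probe sets, where it was not called (adjusted p = 0.232, limma). Of 12 double-strand break response genes, 3 were called toward the DBA cross, among them the checkpoint kinase gene Atm (-0.42), and 1 toward the AKR cross, the histone gene H2ax (0.34). Of 13 nuclear envelope genes, 3 were called toward the DBA cross and 2 toward the AKR cross, with Lmnb1 (-0.45), the lamin B1 gene, and Lbr (0.29), the lamin B receptor gene, in opposite directions. Banf1, the gene of a chromatin-binding factor of the envelope, was called in the direction of Lbr (0.26). Lemd3, an inner nuclear membrane gene, was at -0.84 on its brightest probe set and at -0.02 with the mean of its probe sets, where it was not called (adjusted p = 0.854, limma). Of 9 splicing genes, mostly of DEAH-box helicases, 2 were called toward the DBA cross, Dhx9 (-0.29) and Ddx23 (-0.72), and 1 toward the AKR cross. Of 8 genes of ABCF proteins and translation, Eif5 (-0.47), a translation initiation factor gene, was called toward the DBA cross and 2 toward the AKR cross. Of these, Abcf2 (0.49) was not called with the mean of its probe sets (0.22, adjusted p = 0.0583, limma). Over all 118 tested partner genes, 38 (32.2%) were called, against 24% of all genes, with 19 in each direction and a median of 0.02. Of these 38 calls, 23 held without any 1 array.

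**Figure D3:**
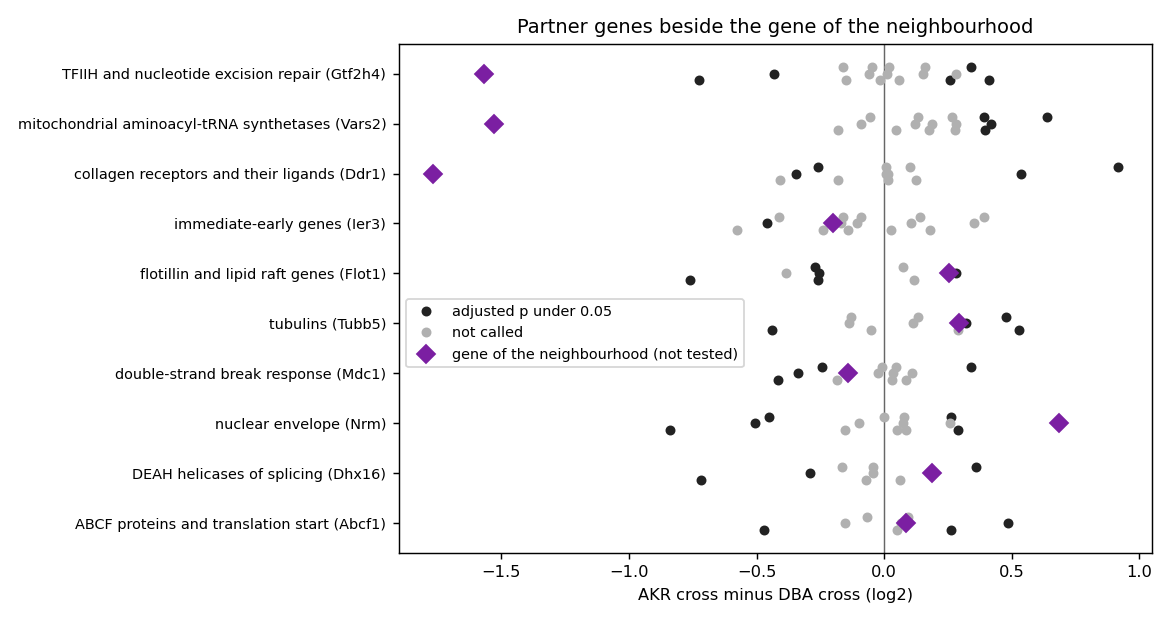
Difference between the crosses (x axis, AKR cross minus DBA cross, log2) of the tested partner genes (circles, dark where called) in each of 10 lists (y axis), with the gene of the neighbourhood as a diamond at its brightest probe set. The diamonds of Gtf2h4, Vars2 and Ddr1 lie at -1.57, -1.53 and -1.77, below every partner gene shown, the lowest of which is Lemd3 at -0.84. The other Vars2 probe set, 1454936_at, is nearly as bright and is not drawn. Its difference was -0.51, within the range of the partner genes.

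Ddr1 is known from epithelium. Of 8 general epithelial markers, 3 were called in its direction, higher in the DBA cross, against 11.5% of all genes. These were Cdh1 (-0.79), Epcam (-0.59) and Krt14 (-0.37), of which Krt14 did not pass when AKR replicate 2 (limma, adjusted p = 0.0553) or DBA replicate 2 (0.0609) was dropped. Krt14 was at -0.074 (adjusted p = 0.670, limma) without probe sets that can match several transcripts and at -0.22 (0.108) with the mean of its probe sets, and Epcam was at -0.22 (0.0534) with that mean. Cldn4 was called higher in the AKR cross (1.24), and Krt8, Krt18, Krt5 and Krt17 did not pass. The linear values of these 8 markers summed to 9435 to 10075 on the AKR arrays and to 9718 to 10548 on the DBA arrays. The groups thus overlapped on the sum. The brightest of the 8, Krt18 (-0.02) and Krt8 (0.04), weigh most in it, so it says little about dimmer markers such as Cdh1 and Epcam. All 8 read over the 40th percentile of each of the 6 arrays. Of 5 cortical epithelial markers, 2 were called opposite to Ddr1, Foxn1 (0.67) and Ctsl (0.31), against 12.5% of all genes. For the direction of Tubb5 and Nrm, 3 of 5 tested proliferation markers were called with the AKR cross higher, against 12.5% of all genes. These were Plk1 (0.55), Ccna2 (0.41) and Aurkb (0.39), while Mki67 (0.01) and Top2a (0.02) did not pass. The summed proliferation markers ran from 10997 to 12743 on the AKR arrays and from 10642 to 10771 on the DBA arrays. Mki67 and Top2a, the brightest of the 5, weigh most in this sum, and AKR replicate 2 read highest on both (12.07 and 12.20). The summed B cell markers ran from 1173 to 1275 on the AKR arrays and from 857 to 965 on the DBA arrays. Of 5 tested markers of B cells, 4 were called with the AKR cross higher, again against 12.5% of all genes. Among these, Cd79a (0.74) and Cd22 (0.52) held without any 1 array, while Cd79b (0.44) held only without AKR replicate 2 or DBA replicate 1, and Pax5 (0.43) held only without DBA replicate 2. The part of these cells in the differences of the 10 genes was not tested, and in bulk tissue fewer cells of a type and less RNA per cell cannot be told apart. All 9 thymocyte markers, among them Cd3e, Cd4, Cd8a and Rag1, read over the 40th percentile of every array, as the tissue label asks. Of these 9, 2 were called (22.2%), against 24% of all genes. The shares called in these marker lists were not tested against that of all genes. Cd3e was higher in the AKR cross (0.30) and held without any 1 array. Cd1d1 was higher in the DBA cross (-0.26) and held in 3 of 6 runs with 1 array left out.

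Within a cross the probe sets of Gtf2h4 moved together from array to array, a measure the choice of genes did not use. AKR replicate 2 was the lowest AKR array on all 4, by -0.24, -0.25, -0.25 and -0.26 from the mean of its cross, and DBA replicate 3 was the highest DBA array on all 4, by 0.05 to 0.28. The same arrays were lowest and highest on 1456226_x_at of Ddr1, at -0.15 and 0.20, and on 1434349_at of Vars2, at -0.09 and 0.04. They were also lowest and highest on 1435820_x_at of Ddr1, where AKR replicates 2 and 3 were nearly level (both -0.03). The other Vars2 probe set and 1415797_at, 1415798_at and 1459990_at of Ddr1 did not share this order. How common this order was over all probe sets was not counted. These probe sets share the RNA and the array, so the likeness is a description over 3 arrays of a cross.

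**Figure D4:**
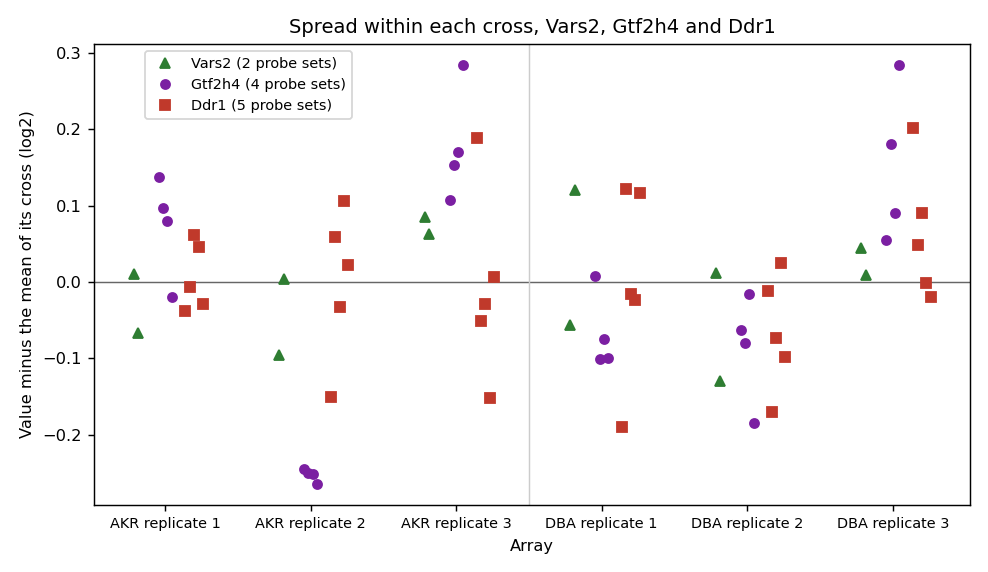
Value minus the mean of its cross (y axis, log2) on each array (x axis) for the 11 probe sets of Vars2, Gtf2h4 and Ddr1 that passed the filter on dim values. The 4 Gtf2h4 probe sets lie together between -0.24 and -0.26 on AKR replicate 2, while the 5 Ddr1 probe sets spread from -0.15 to 0.11 there.

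The genes most like each of the 3 were found by the root mean square difference between the 6 log2 values, after each gene was centred on its own mean, over 12845 genes outside the neighbourhood. For Gtf2h4 the nearest were Ccn3 (0.05), Rpgrip1 (0.14) and Skint10 (0.14). For Vars2, taken on 1434349_at alone, they were Ccn3 (0.09), Skint10 (0.10) and Trim30a (0.11). For Ddr1 they were Rabif (0.13), H2-Ea (0.13) and Skint10 (0.18). Of these, H2-Ea, which encodes a class II chain, lies on chromosome 17, and the others lie on chromosomes 1, 4, 7, 14 and 15. The distance between Vars2, again on 1434349_at, and Gtf2h4 was 0.09, and Ddr1 lay 0.16 from Vars2 and 0.17 from Gtf2h4. Since the 6 arrays form 2 groups, this measure is small for any gene whose crosses differ by a like amount.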

How the data were processed

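The authors deposited 45101 log2 values per array. The submitters' processing notes name MAS5 and RMA, without a version or a role. The values ran from 2.47 to 14.4 with array medians from 5.92 to 5.95. The 64 control probe sets were left out, and 27385 of 45037 probe sets passed the filter. Symbols came from the platform annotation, and gene order, strand and promoter windows from RefSeq (GRCm38.p6), with no array coordinates used. A gene was represented by its brightest tested probe set. Two-sided moderated tests (limma 3.58.1 in R 4.3.3, with a trend in the variance) ran over all tested probe sets, with Benjamini-Hochberg adjustment over 12855 genes and a threshold of 0.05. The fit was tested on simulated data. Figures were drawn with matplotlib 3.10.9. The number of arrays limits the precision.

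The genes and lists were chosen with earlier results of these data known. The text names all 10 genes, called neighbours, the 3 nearest on each side, those of up to 4 called genes per partner list whose call held without any 1 array, and the 3 genes most like Vars2, Gtf2h4 and Ddr1. Ercc2, Ercc3, Cdk7, Ddr2 and the marker genes shown were picked after their values were seen. Other filters, normalizations, variance models and choices of probe sets were tried, as were array weights, a block for the replicate number and leaving out each array. The titles number the replicates 1 to 3 in both crosses. Deviations of same-numbered arrays correlated at 0.39, 0.07 and 0.37, and those of differently numbered arrays at -0.38 to 0.07. The labels state no pairs, so the numbers were not taken as pairs. Whether same-numbered arrays shared a batch was not tested.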

Additional observations from a re-analysis of the deposited data

How the results depend on the processing

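The brightest probe sets of all 10 genes kept the sign of their difference under every alternative run for them. Leaving out 1 array gave -1.57 to -1.48 for Vars2 on 1434349_at, -1.64 to -1.45 for Gtf2h4, -1.86 to -1.67 for Ddr1, and 0.15 to 0.24 for the median of the other genes. With the mean of probe sets the difference was -1.02 for Vars2 and -1.05 for Ddr1, and without probe sets that can match several transcripts it was -1.07 for Ddr1. The last alternative left no probe set of Ier3. Calls among the 118 partner genes numbered 27 to 34 with 1 array left out, against 38. Of 6 genes between the outer genes, 2 were called in place of 1 after quantile normalization, with array weights, with the replicate number as a block and with the mean of probe sets. Of 15 genes on each side, 3 were called on the Vars2 side and 3 on the Abcf1 side without a trend in the variance, and 3 on the Vars2 side without probe sets that can match several transcripts. With 1 array left out, 1 to 2, 4 to 5 and 2 to 5 were called between the outer genes, on the Vars2 side and on the Abcf1 side, and 1843 to 2519 genes over the array, against 3084 with all arrays. With the replicate block 4194 genes were called, and the calls of Mrps18b (adjusted p = 0.0363, limma) and Gabbr1 (0.0162) were added among the neighbours. The share of called genes with the AKR cross higher was 62.0% after quantile normalization and 57.2% after median centring, against 52.0%. In 8 cases a partner gene that was called as reported or under the alternative changed sign. Without probe sets that can match several transcripts these were Myh9 (-1.59) and Tubb2a (0.65). With the mean of probe sets they were Fars2 (-0.27), Pag1 (0.045), Tubb2a (0.26), Topbp1 (0.079), Syne1 (-0.30) and Abcf3 (-0.033). The cause was not tested. Dim signal limits the 6 probe sets of the 10 genes that did not pass the filter.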
